A study of Mus musculus with 6 samples.

Results

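The genes described here encode the subunits, alternative caps and assembly chaperones of the proteasome in AML12 cells, a mouse hepatocyte line. They were taken as every gene whose symbol starts with Psm followed by a letter from a to g and a digit, with symbols containing -ps left out, which gave 48 of the 25330 genes listed. RNA-seq had been carried out on 3 normoxic control libraries and 3 libraries of cells after hypoxia and reoxygenation (H/R), all of wild-type genotype. Control cells were kept in air with 21% oxygen and 5% CO2, in their usual growth medium with 10% serum, an insulin, transferrin and selenium supplement and 40 ng/mL dexamethasone. H/R cells were moved to medium lacking serum and glucose, held at 1% oxygen for 6 h and returned to oxygen for 2 h, so that oxygen and medium differed together between the groups and their effects cannot be told apart. AML12 is a single line that was made from hepatocytes of a mouse carrying a transforming growth factor alpha transgene. The sources used here do not say whether the 3 libraries of a group came from separate cultures, so p-values measure the spread between these libraries, which may be technical.

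The proteasome is the protease that degrades proteins tagged with ubiquitin. Its barrel-shaped core is built of stacked rings of alpha subunits, which gate the entry, and of beta subunits, some of which carry the active sites. A regulatory particle caps the core. The base of this cap holds a ring of ATPases that unfold the substrate and the receptors that catch ubiquitin, and its lid holds the enzyme that cuts the ubiquitin chain off. Dedicated chaperones guide assembly of the core and of the base. In cells exposed to interferon, inducible beta subunits replace the constitutive catalytic ones and form the immunoproteasome, which favours peptides for presentation on MHC class I. When proteasome activity is lost, the transcription factor NFE2L1 drives the subunit genes together.

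Library totals lay between 20438746 and 21854790 counts, and the members took up between 0.6207% and 0.7476% of them. Normalized counts given here are the deposited counts divided by the TMM-scaled library size and brought to the mean scaled size of the 6 libraries. Tests were made with edgeR's quasi-likelihood test on the 14020 genes with enough counts, with Benjamini-Hochberg adjustment over all of them, and a gene was called at an adjusted p under 0.05. Of the 9 hepatocyte markers tested, 6 fell and 2 rose, with a median log2 fold change of -0.99. On the log2 scale Krt8 and Krt18 rose (0.66 and 0.66), and Alb, Ttr, Afp, Apob, Apoa1 and Hnf4a fell (-2.85, -3.07, -2.03, -1.04, -0.99 and -0.41). Alb had 132 to 542 counts in the control libraries and 31 to 43 after H/R, and Cps1 had 18 counts in control replicate 1 and 0 in each other library. The 4 biliary markers summed to 31986 to 36476 counts in the control and 52574 to 56997 in the H/R libraries, where Krt19 and Krt7 rose (1.00 and 0.79), Sox9 was 5.67-fold higher and Spp1 fell (-0.57). Summed counts of the 7 leukocyte and macrophage markers listed were 67 to 80 in the control and 190 to 222 in the H/R libraries. Most of these counts came from Cd68 and Csf1r, which both rose (2.77 and 0.63). Ptprc had at most 3 counts in any library. The 8 endothelial and stellate markers summed to 25 to 27 and 15 to 33. The part of these markers and of other cells in the results was not tested, and in such bulk libraries fewer cells of a kind and less RNA per cell cannot be told apart.

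After H/R, proteasome genes were mostly lower, by small amounts. Of the 48 members, 46 had enough counts for a test, and 27 of these fell, 3 rose and 16 did not pass the threshold. Among all tested genes 62.8% were called, 31.8% lower and 31% higher, so the 27 of 46 (58.7%) lay above the background of lower genes and the 3 of 46 (6.5%) below the background of higher ones. The median log2 fold change was -0.18 over the 46 members and -0.01 over all tested genes, whose quartiles were -0.35 and 0.31. None of the members changed 2-fold, the second threshold of the study, which 8.52% of all tested genes passed together with the first. The count past both was 0 with edgeR, also at an unadjusted p under 0.05, and 0 with DESeq2.

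The same counts can also be described library by library, which is no separate support. In the control libraries the members held 0.7476%, 0.7457% and 0.741% of all counts, and in the H/R libraries 0.6261%, 0.6223% and 0.6207%. The groups did not overlap, with a mean of 0.745% ± 0.0034 against 0.623% ± 0.00278 (SD, n = 3 each), a ratio of 0.837. The members were chosen with earlier results of these data known, so their share was given no test. This share rests on library totals, which set the median of all tested genes at -0.12. Gene by gene, the normalized counts of the H/R libraries all lay below those of the control libraries for 28 members and all above for 5, whereas among all tested genes 65.9% did not overlap, 33.5% with H/R below and 32.5% with H/R above. When libraries were scaled by their totals instead, 34 members were lower and 2 were higher, while 39.1% of all tested genes were lower and 23.9% higher. The distance between the median of the members and that of all tested genes was -0.163 with either scaling. Rescaling libraries moves every gene by nearly the same amount, so this distance could hardly differ and is no separate support.

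**Figure D1:**
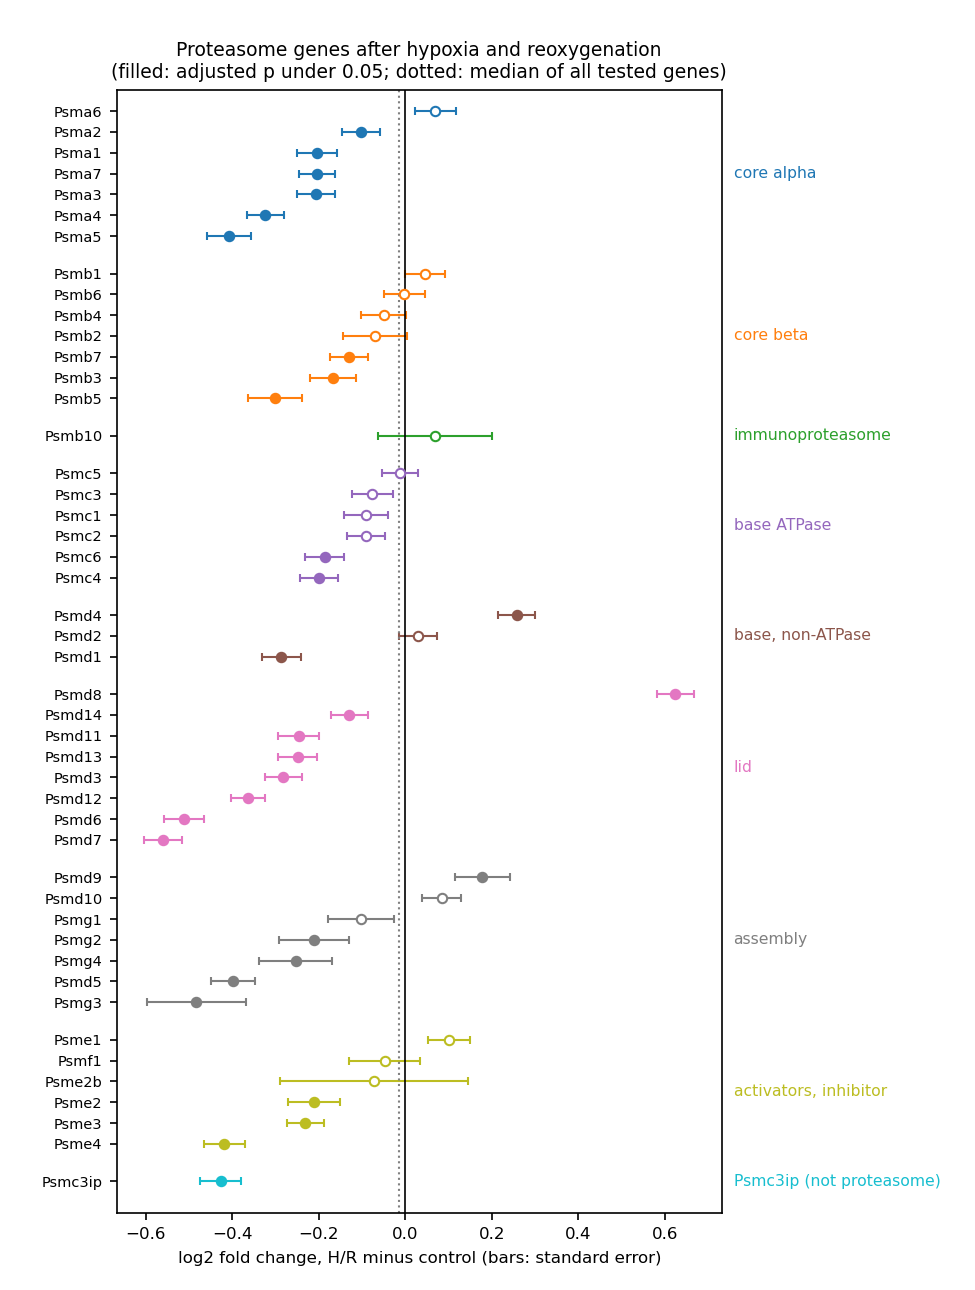
Log2 fold change of H/R over control for the 46 tested members (x axis), grouped by role, with standard errors; filled points had an adjusted p under 0.05 and the dotted line is the median of all 14020 tested genes. Points lie mostly left of 0, from -0.56 for Psmd7 to 0.62 for Psmd8, which stands apart from the other lid genes.

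Levels differed widely between the roles. As RPKM, which corrects for exon length and library total, the tested members ranged from 2.47 (Psmf1) to 331 (Psmc1) in the control libraries, with a median of 52.0 against 5.05 over all tested genes. The median control level was 142 RPKM for the 6 ATPase genes, 111 for the 3 other base genes, 73.2 for the 7 core alpha genes, 54.7 for the 8 lid genes and 40.1 for the 7 core beta genes. The assembly genes had a median of 18.5 RPKM and the activators and inhibitor one of 15.9. Lengths are those of all annotated exons of a gene, which exceed the length of the transcript in use where a gene has several, so the order of near neighbours such as the lid and core beta groups is uncertain. Genes whose products are needed in equal numbers in 1 particle still differed widely. Among the lid genes the level ran from 14.7 ± 0.558 RPKM (Psmd11) to 261 ± 6.48 RPKM (Psmd7, SD, n = 3). Part of that span can come from exon length, which was 6383 bases for Psmd11 and 2261 for Psmd7. The longest coding transcript of Psmd11 has 2848 bases.

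**Figure D2:**
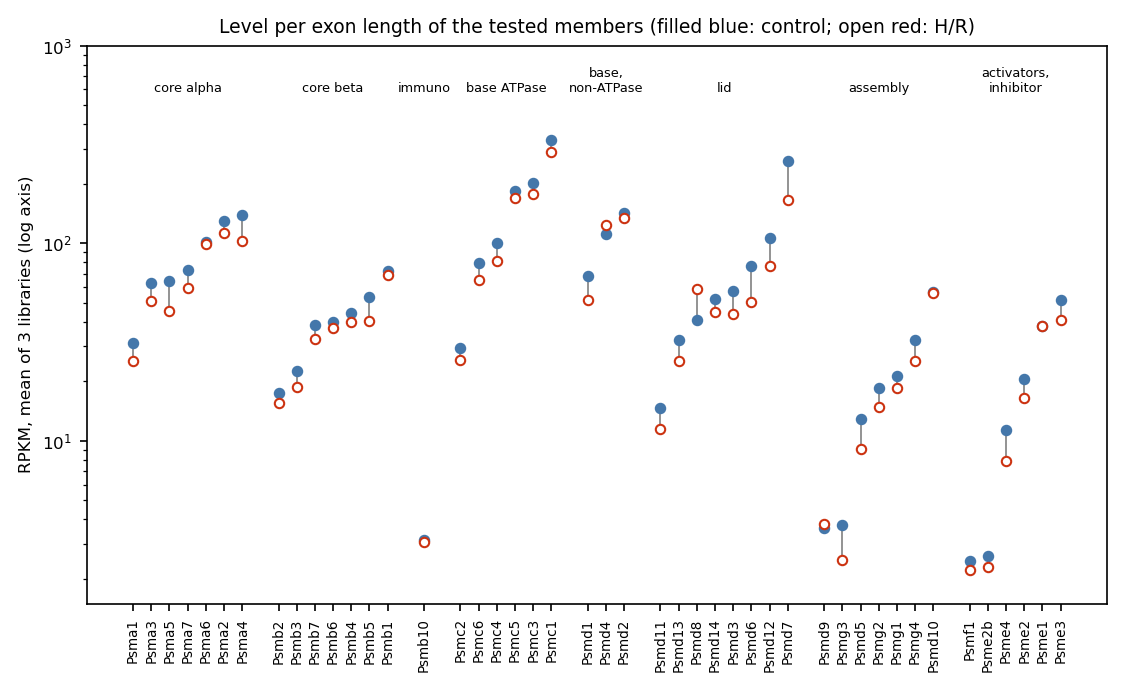
Mean RPKM of 3 control libraries (filled blue) and 3 H/R libraries (open red) for each tested proteasome gene on a log axis, ordered by control level within its role. The red point lies under the blue one for most genes, and above it for Psmd8, Psmd4 and Psmd9; RPKM is scaled on library totals, on which Psmd9 did not pass the threshold.

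The alpha subunits form the outer rings of the core, and 6 of the 7 genes fell (85.7%, against 31.8% of all tested genes), with a median log2 fold change of -0.20. Psma5 fell most, by 24.6%. Its normalized counts were 1782, 1677 and 1752 in the control libraries and 1210, 1355 and 1363 in the H/R libraries, without overlap (log2 fold change -0.41 ± 0.051 (SE), adjusted p = 1.52e-08, edgeR). Psma4 fell by 20.1% (log2 fold change -0.32, adjusted p = 5.12e-08), and Psma1, Psma3 and Psma7 fell by 13.2%, 13.3% and 13.2%. Psma2 fell by 6.84% (log2 fold change -0.10, adjusted p = 0.0398), a call that was lost with DESeq2 (adjusted p = 0.107), without a filter on low counts (0.0702), with control replicate 1 left out (0.15) and with each H/R replicate left out in turn (0.0697 to 0.0997). Psma6 was the alpha gene that did not pass. It had normalized counts of 2715, 2520 and 2430 in the control libraries and 2546, 2788 and 2707 in the H/R libraries, and the groups overlapped (95% interval of the log2 fold change -0.03 to 0.17, adjusted p = 0.204). Psma8, which encodes a testis form of an alpha subunit, was not analysed here.

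Among the 7 constitutive beta subunits 3 genes fell (42.9%, against 31.8% of all tested genes) and 4 did not pass. The median log2 fold change of the 7 was -0.07. Of the 3 catalytic subunits 2 fell, as did 31.8% of all tested genes, and 1 did not pass. Psmb5, which carries the chymotrypsin-like site, had normalized counts of 1055, 888 and 897 in the control libraries and 746, 781 and 778 in the H/R libraries, all H/R libraries below all controls, and fell by 18.8% (log2 fold change -0.30 ± 0.062 (SE), adjusted p = 8.65e-05). Psmb7, which carries the trypsin-like site, had normalized counts of 2614, 2652 and 2795 in the control libraries and 2443, 2426 and 2503 in the H/R libraries and fell by 8.55% (log2 fold change -0.13, adjusted p = 0.0108), a call that was lost without control replicate 3 (adjusted p = 0.0645). Psmb6, with the caspase-like site, had normalized counts of 1516, 1496 and 1586 in the control libraries and 1516, 1500 and 1575 in the H/R libraries. The groups of Psmb6 overlapped almost entirely (95% interval of the log2 fold change -0.10 to 0.10, adjusted p = 0.975). Of the structural beta subunits, Psmb3 fell by 11% (log2 fold change -0.17, adjusted p = 0.00687), while Psmb1, Psmb2 and Psmb4 had log2 fold changes of 0.05, -0.07 and -0.05 and did not pass. With library totals Psmb2 (-0.17, adjusted p = 0.0455) and Psmb4 (-0.15, adjusted p = 0.00993) passed, as did Psmb4 with upper quartile scaling (-0.12, adjusted p = 0.0373). Psmb1 was the beta gene with the highest value. Its normalized counts were 1512, 1496 and 1556 in the control libraries and 1600, 1556 and 1557 in the H/R libraries, and its sign turned with library totals (-0.06).

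The value of Psmb5 needs care, since a processed pseudogene, Gm3375, is 98.9% identical to its transcript over 796 bases. That row held 224, 190 and 218 counts in the control libraries and 167, 179 and 185 after H/R, or 22.48% of the counts of Psmb5. With both rows summed, an alternative chosen after seeing the data, the log2 fold change of Psmb5 was -0.27 (adjusted p = 0.000184) instead of -0.30. Psmb5 also shares 12.5% of its exon length with the microRNA gene Mir686 on the same strand, and Psmb7 shares 11.8% with Nek6 on the other. Nek6 had a log2 fold change of 0.15, opposite in sign to that of Psmb7.

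Of the inducible beta subunits, Psmb9 was at the floor. It had 0, 1 and 0 counts in the control libraries and 0, 1 and 0 after H/R, and no fold change is given. A count of 0 in a library of this depth allows up to 3 counts. Psmb10 was detected at 3.15 ± 0.279 RPKM in control cells (SD, n = 3) and 3.07 ± 0.0357 after H/R. Its normalized counts were 103, 121 and 104 in the control libraries and 114, 116 and 114 in the H/R libraries, and no difference was detected (95% interval of the log2 fold change -0.20 to 0.34, adjusted p = 0.667). The third inducible subunit gene, Psmb8, was not analysed here. Psmb11, the beta subunit of thymus epithelium, had 1 count in control replicate 2 and 0 in every other library. Psmb9 and Psmb10 therefore stood far below the constitutive genes, whose control RPKM ranged from 17.5 (Psmb2) to 71.9 (Psmb1).

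The ratio of Psmb10 to its constitutive counterpart Psmb7, taken from RPKM within each library, does not depend on how libraries are scaled. It was 0.0792, 0.0915 and 0.075 in the control libraries and 0.0938, 0.0964 and 0.0913 in the H/R libraries. The mean was 0.0819 ± 0.00857 in control and 0.0938 ± 0.00252 after H/R (SD, n = 3 each), and control replicate 2 lay among the H/R values. The ratio was 1.15-fold higher after H/R, which did not pass (two-sided exact permutation over libraries, p = 0.2, with 0.1 the lowest possible). All 6 ratios were below 0.1.

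The 6 ATPase genes of the base had the highest median level of the groups. All 6 log2 fold changes were below 0, as were those of 7164 of all 14020 tested genes. Their median was -0.09, and 2 of the 6 genes fell (33.3%, near the 31.8% of all tested genes). Psmc4 fell most, with normalized counts of 4537, 4595 and 4201 in the control libraries and 3803, 3947 and 3861 in the H/R libraries and no overlap (log2 fold change -0.20 ± 0.043 (SE), adjusted p = 0.00014). Psmc6 fell by 12.1% (log2 fold change -0.19, adjusted p = 0.000464). Psmc5 was nearest to 0. It had normalized counts of 5352, 5315 and 4984 in the control libraries and 5133, 5236 and 5146 in the H/R libraries, so the groups overlapped (95% interval of the log2 fold change -0.10 to 0.07, adjusted p = 0.807). Its log2 fold change was 0.0062 without control replicate 1 and 0.0001 without control replicate 2. Psmc1, Psmc2 and Psmc3 had log2 fold changes of -0.09, -0.09 and -0.08 and did not pass on all 6 libraries with the usual filter and TMM factors. Without control replicate 3, Psmc1 (-0.15, adjusted p = 0.00823) and Psmc3 (-0.12, adjusted p = 0.0213) passed, and Psmc2 passed without H/R replicate 1 (-0.13, adjusted p = 0.0262) and with at least 10 counts required in every library (-0.10, adjusted p = 0.048). With upper quartile scaling all 3 passed, at -0.16, -0.16 and -0.15. With library totals all 3 passed, at -0.20, -0.20 and -0.18, and so did Psmc5, at -0.12 (adjusted p = 0.00856), against a median of -0.12 over all tested genes on that scale.

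The base also holds Psmd1 and Psmd2, its large scaffolds, and Psmd4, a receptor for ubiquitin chains. Psmd1 fell, Psmd4 rose and Psmd2 did not pass. Psmd1 had normalized counts of 10356, 10438 and 9455 in the control libraries and 8173, 8374 and 8262 in the H/R libraries and fell by 18% (log2 fold change -0.29 ± 0.044 (SE), adjusted p = 1.01e-06). Psmd2 had a log2 fold change of 0.03 and did not pass (95% interval of the log2 fold change -0.06 to 0.12, adjusted p = 0.585). Psmd4 rose by 19.6%. Its normalized counts were 6675, 6020 and 6454 in the control libraries and 7625, 7596 and 7676 in the H/R libraries, so each H/R library lay above each control (log2 fold change 0.26 ± 0.043 (SE), adjusted p = 3.5e-06), and it remained higher with library totals (0.15, the lowest value over the alternatives) and without control replicate 1. The RPKM ratio of Psmd4 to Psmd2 was 0.785 ± 0.0543 in control and 0.919 ± 0.0268 after H/R (SD, n = 3 each), a description of a pair chosen after its values were seen. Of the exon length of Psmd1, 7.6% is shared with other genes, among them Gm21972 on the same strand, which had 3477 to 4101 counts in the control libraries.

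The lid was the group with the widest spread. Of its 8 genes 7 fell (87.5%, against 31.8% of all tested genes) and 1, Psmd8, rose (12.5%, against 31%). No lid gene was left uncalled, while 62.8% of all tested genes were called. Psmd7, the inactive partner of the lid's deubiquitinase, fell by 32.1%, more than any other member. Its normalized counts were 12524, 11812 and 11815 in the control libraries and 8159, 8291 and 8082 in the H/R libraries (log2 fold change -0.56 ± 0.043 (SE), adjusted p = 1.87e-13). Psmd6 fell by 29.8%, from 3659 ± 234 to 2569 ± 58.8 (SD, n = 3 each) (log2 fold change -0.51, adjusted p = 8.77e-12). Psmd12 fell by 22.2% (log2 fold change -0.36, adjusted p = 9.39e-10), and Psmd3, Psmd13 and Psmd11 fell by 17.7%, 15.8% and 15.7%. Psmd14 encodes the deubiquitinase itself. It had normalized counts of 2914, 3128 and 3019 in the control libraries and 2727, 2718 and 2838 in the H/R libraries, a smaller difference without overlap (log2 fold change -0.13 ± 0.043 (SE), adjusted p = 0.01), and without H/R replicate 2 its adjusted p was 0.0521. Psmd3 shares 0.3% of its exon length with Gm12356, and Psmd13 shares 10.1% with Sirt3 on the other strand.

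Psmd8 (chromosome 7 of GRCm38, 29174188 to 29180701, minus strand) went the other way. It encodes the lid subunit that in yeast joins last when the lid is assembled. Its normalized counts were 2467, 2559 and 2613 in the control libraries and 4073, 3851 and 3851 in the H/R libraries, a rise of 54.1% (log2 fold change 0.62 ± 0.043 (SE), adjusted p = 1.13e-14). All H/R libraries lay well above all control libraries, and no exon of Psmd8 is shared with another listed gene. Over the alternatives run its log2 fold change stayed between 0.51 and 0.64 with an adjusted p under 0.05. Set against Psmd7, at the other end of the lid, the RPKM ratio of Psmd8 was 0.146, 0.160 and 0.164 in the control libraries and 0.369, 0.344 and 0.352 after H/R. That ratio moved 2.27-fold, from 0.157 ± 0.00954 to 0.355 ± 0.0131 (SD, n = 3 each). Both genes were chosen for their place at the ends of the list, so this is a description without a test. Without Psmd8 the median log2 fold change of the other 7 lid genes was -0.28.

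**Figure D3:**
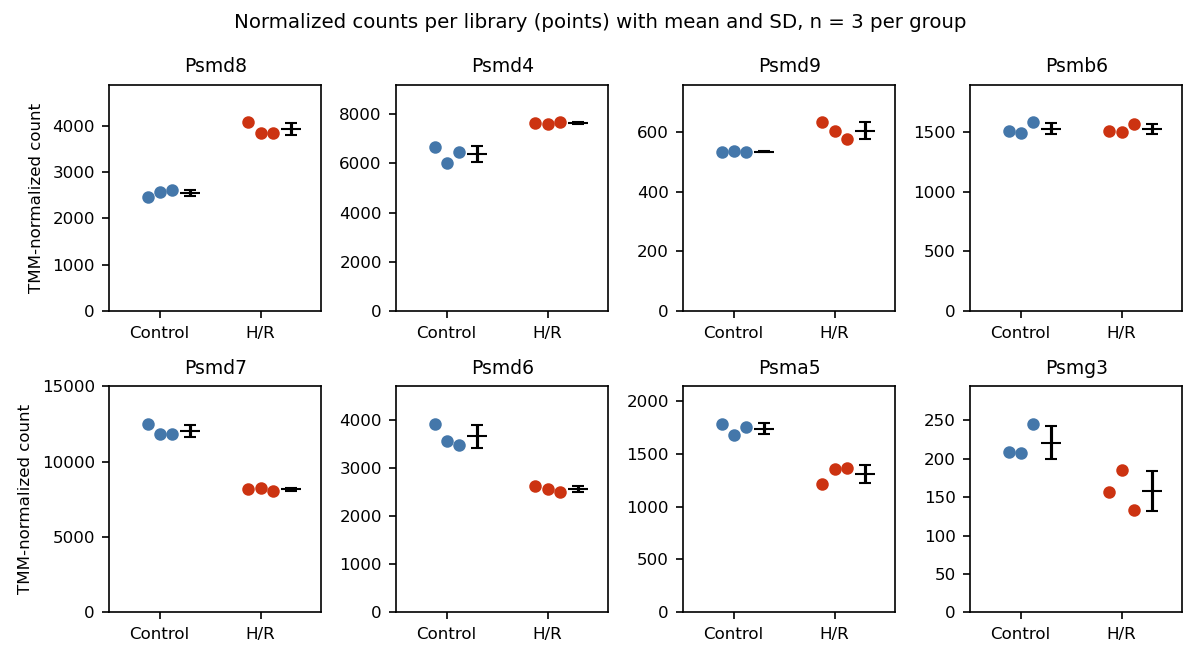
TMM-normalized counts (y axis, starting at 0) of 8 proteasome genes in each of the 3 control (blue) and 3 H/R (red) libraries, with mean and SD. Psmd8, Psmd4 and Psmd9 are higher in every H/R library, Psmb6 overlaps between the groups, and Psmd7, Psmd6, Psma5 and Psmg3 are lower in every H/R library.

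The promoters of the genes at the ends of this range were read from RefSeq (GRCm38.p6), from 250 bases before to 50 bases after the annotated start, and are shown because these genes moved in opposite directions while their products join 1 particle. Psmd8 and Psmd4 rose and Psmd6 fell. The table used here has no entry for Psmd7. Sequences run 5′ to 3′ on the strand of the gene, and capitals mark CCAAT boxes on either strand.
Psmd8, chr7:29180624-29180923, minus strand: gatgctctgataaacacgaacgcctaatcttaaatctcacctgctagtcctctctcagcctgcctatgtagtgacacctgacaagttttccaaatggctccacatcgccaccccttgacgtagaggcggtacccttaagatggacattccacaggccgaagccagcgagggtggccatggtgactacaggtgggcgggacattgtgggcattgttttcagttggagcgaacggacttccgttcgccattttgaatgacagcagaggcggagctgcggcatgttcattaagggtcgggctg
Psmd4, chr3:95042565-95042864, minus strand: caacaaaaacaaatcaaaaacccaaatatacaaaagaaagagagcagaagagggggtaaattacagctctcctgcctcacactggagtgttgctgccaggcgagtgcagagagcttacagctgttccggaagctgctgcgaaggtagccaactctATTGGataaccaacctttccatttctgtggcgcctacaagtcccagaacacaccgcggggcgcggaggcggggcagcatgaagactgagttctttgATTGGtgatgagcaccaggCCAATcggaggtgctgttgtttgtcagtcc
Psmd6, chr14:14120896-14121195, minus strand: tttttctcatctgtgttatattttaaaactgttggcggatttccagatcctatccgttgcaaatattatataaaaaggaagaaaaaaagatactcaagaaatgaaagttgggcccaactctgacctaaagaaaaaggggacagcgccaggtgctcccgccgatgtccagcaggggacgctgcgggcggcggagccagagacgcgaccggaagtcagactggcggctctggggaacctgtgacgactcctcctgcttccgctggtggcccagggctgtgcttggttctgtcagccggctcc
Psmd4 holds 3 CCAAT boxes in this window, and Psmd8 and Psmd6 hold none.

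Promoters were found for 41 of the 48 members, and 4 motifs were searched on both strands. The core of the antioxidant response element, TGACNNNGC, which NFE2L1 and NFE2L2 bind with small MAF proteins, was in 6 of 41 members (14.6%) and in 14.0% of the 27025 genes with a promoter. The CCAAT box was in 36.6% of members and 41.1% of all, the core of the hypoxia response element, ACGTG, in 19.5% and 21.8%, and the heat shock element unit, GAANNTTC, in 7.3% and 9.0%. Each share was close to that of all promoters. Among the 23 members with a promoter that fell, 4 held the antioxidant response core, as did 1 of 3 that rose and 1 of 13 that did not pass. These matches are shown with 8 bases on each side where the window reaches, 5′ to 3′ on the strand that holds the match, with the match in capitals.
Psmd9, chr5:123228151-123228175, plus strand: ctagccggTGACCCCGCccacttcc
Psme4, chr11:30771760-30771784, minus strand: tcttctggTGACGCTGCagccgcag
Psmb6, chr11:70525340-70525364, plus strand: aaagagagTGACGGAGCgctttacg
Psmd12, chr11:107479278-107479297, minus strand: ggcaaatgTGACACAGCaga
Psmc6, chr14:45329589-45329613, minus strand: gcaatgccTGACTTAGCtactggct
Psmb5, chr14:54618026-54618050, minus strand: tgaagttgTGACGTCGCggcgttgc
A match is a description of letters, not a site or a cause, and no match shown overlaps another of the 4 motifs. Of the genes shown, Psmd9 rose, Psme4, Psmd12, Psmc6 and Psmb5 fell, and Psmb6 did not pass.

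Of the 7 assembly genes 4 fell (57.1%, against 31.8% of all tested genes), 1 rose (14.3%, against 31%) and 2 did not pass. The median log2 fold change of the 7 was -0.21. Psmg1 with Psmg2 and Psmg3 with Psmg4 form pairs that build the alpha ring. Of these 4 genes 3 fell (75%, against 31.8% of all tested genes), with a median log2 fold change of -0.23. Psmg3 had normalized counts of 209, 208 and 246 in the control libraries and 156, 186 and 134 in the H/R libraries and fell by 28.4% (log2 fold change -0.48 ± 0.11 (SE), adjusted p = 0.000453). Of its exon length, 9.7% is shared with Gm26938 on the same strand, which had a log2 fold change of -0.51. Psmg4 fell by 16.1% (log2 fold change -0.25, adjusted p = 0.0093), with an adjusted p of 0.0637 without H/R replicate 3. Psmg2 fell by 13.6% (log2 fold change -0.21, adjusted p = 0.024), and its adjusted p rose to 0.0789 with DESeq2, to 0.16 without control replicate 1 and to 0.0502 and 0.0998 without H/R replicate 1 and 2. Psmg1 did not pass (log2 fold change -0.10, adjusted p = 0.255), but it did without H/R replicate 1 (-0.20, adjusted p = 0.0324) and with library totals (-0.21, adjusted p = 0.0221).

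Psmd5, Psmd9 and Psmd10 encode chaperones that hold the ATPases while the base is built and leave the finished particle. Psmd5 fell by 24.1%, from 1900 ± 140 to 1443 ± 28.7 (SD, n = 3 each) (log2 fold change -0.40, adjusted p = 2.38e-08). Psmd9 rose by 13.1%. Its normalized counts were 534, 537 and 536 in the control libraries and 634, 605 and 580 in the H/R libraries, without overlap (log2 fold change 0.18 ± 0.064 (SE), adjusted p = 0.0154), but the call was lost with library totals (0.07, adjusted p = 0.338), with upper quartile scaling (0.11, adjusted p = 0.141), with limma on log2 RPKM (adjusted p = 0.351 and 0.355 for pseudocounts of 0.1 and 1) and without H/R replicate 1 (0.15, adjusted p = 0.0923). The gene model of Psmd9 shares 25.5% of its exon length with Gm26745, which had at most 1 count in any library. That model spans 123169413 to 123250131 on chromosome 5, and the promoter match shown for Psmd9, from 123228151, lies inside it. Counts and RPKM of Psmd9 can thus include exons upstream of the start used for its promoter. Psmd10, also known as gankyrin, had normalized counts that were higher in every H/R library but did not pass (log2 fold change 0.08, adjusted p = 0.111). The RPKM ratio of Psmd9 to Psmd5 went from 0.282 ± 0.0212 to 0.419 ± 0.0191 (SD, n = 3 each), again for a pair chosen after its values were seen.

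Alternative caps can replace the regulatory particle. Psme1 and Psme2 encode an interferon-inducible ring, and their genes lie 5911 bases apart on chromosome 14. Psme2 fell by 13.6%, from 741 ± 34.6 to 640 ± 9.9 (SD, n = 3 each) (log2 fold change -0.21, adjusted p = 0.00274). Psme1 had normalized counts of 1824, 1639 and 1674 in the control libraries and 1854, 1868 and 1792 in the H/R libraries and did not pass with all libraries (log2 fold change 0.10 ± 0.048 (SE), adjusted p = 0.0657). Without control replicate 1, the library with a Cps1 signal, it passed (log2 fold change 0.15, adjusted p = 0.0132), and with library totals its log2 fold change was -0.003. The RPKM ratio of Psme1 to Psme2, which needs no scaling, was 1.87, 1.80 and 1.87 in the control libraries and 2.34, 2.29 and 2.24 after H/R. It was 1.24-fold higher after H/R, a description without a test.

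Psme4, which encodes a single-chain nuclear activator, fell most in this group. It had normalized counts of 1912, 1885 and 2018 in the control libraries and 1495, 1389 and 1468 in the H/R libraries, with all H/R libraries below all controls (log2 fold change -0.42 ± 0.048 (SE), adjusted p = 2.43e-09). Psme3, the nuclear ring activator, fell by 14.8% (log2 fold change -0.23, adjusted p = 1.44e-05). Psmf1, which encodes an inhibitor of the isolated core, did not pass (log2 fold change -0.05, adjusted p = 0.636). Psme2b, a row 99.4% identical to Psme2 over 794 bases, had 37 to 57 counts per library and did not pass (log2 fold change -0.07, adjusted p = 0.789). Reads can have been split between these rows, which summed gave a log2 fold change of -0.20 for Psme2 (adjusted p = 0.00338).

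One gene was matched by its symbol alone. Psmc3ip encodes a partner of the recombinases of meiosis and is no proteasome subunit. It had normalized counts of 2317, 2283 and 2228 in the control libraries and 1765, 1749 and 1568 in the H/R libraries and fell by 25.6% (log2 fold change -0.43 ± 0.048 (SE), adjusted p = 1.78e-09). Of its exon length 21.2% is shared with Mlx on the other strand, which had a log2 fold change of 0.49, so its value is uncertain. Without Psmc3ip, 26 of the 45 tested proteasome genes fell (57.8%, against 31.8% of all tested genes) and 3 rose (6.7%, against 31%). The median log2 fold change of the 45 was -0.17.

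Exons and near-identical sequences shared with other genes were counted for all members. Exons of 14 members overlap an exon of another listed gene. Of the 34 that share none, 33 were tested, with a median log2 fold change of -0.13. Of these 33, 18 fell (54.5%, against 31.8% of all tested genes) and 2, Psmd4 and Psmd8, rose (6.1%, against 31%). Rows at least 95% identical to a member over 300 bases or more were found for 10 members, Psme2 and Psme2b counted as copies of each other. Apart from Psme2b, whose near-identical partner is the larger, such rows held 22.48% of the counts of Psmb5, 6.28% for Psme2 and at most 1.92% for the other 7. Adding them to their genes left 27 members lower and 3 higher of 45 tested, against 31.8% and 31% of all tested genes.

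Genes that work with the proteasome but do not carry its symbol were counted from 4 lists. Of 9 listed partners 2 fell (22.2%) and 3 rose (33.3%), shares near the 31.8% and 31% of all tested genes. Pomp, a chaperone of core assembly, fell from 803 ± 59.2 to 702 ± 35.7 (SD, n = 3 each) (log2 fold change -0.20, adjusted p = 0.00683). Adrm1, a ubiquitin receptor of the base, fell as well (log2 fold change -0.15, adjusted p = 0.00325). Akirin2, which brings proteasomes into the nucleus, rose nearly 2-fold. It had normalized counts of 274, 244 and 270 in the control libraries and 512, 520 and 538 in the H/R libraries (log2 fold change 0.99 ± 0.079 (SE), adjusted p = 3.24e-13). Ecpas, listed as AI314180, binds core and cap together and rose (log2 fold change 0.37, adjusted p = 2.22e-08), and so did Txnl1, a redox protein bound to the lid (log2 fold change 0.15, adjusted p = 0.00209). The call of Pomp was lost without control replicate 1 (adjusted p = 0.0769) and without H/R replicate 3 (0.059), and that of Txnl1 with library totals (0.32) and upper quartile scaling (0.0879). Sem1 (listed as Shfm1), Usp14, Uchl5 and Ube3c did not pass, and Ube3c had the lowest value (log2 fold change -0.25, adjusted p = 0.155). Paaf1 was not analysed here.

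Of the 13 genes on the list around NFE2L1, 7 rose (53.8%, against 31% of all tested genes) and 3 fell (23.1%, against 31.8%), with a median log2 fold change of 0.39. Nfe2l1 itself was abundant, with normalized counts of 11010, 10875 and 10659 in the control libraries and 11258, 11296 and 10785 in the H/R libraries. No change was detected in it (95% interval of the log2 fold change -0.05 to 0.12, adjusted p = 0.497). Its relative Nfe2l2, the oxidative stress factor, rose from 1759 ± 50.9 to 2807 ± 101 (SD, n = 3 each) (log2 fold change 0.67, adjusted p = 5.05e-15). The small MAF partners Maff, Mafk and Mafg rose with log2 fold changes of 2.21, 0.96 and 0.39, and Maff was the only gene of the 4 lists past both thresholds (adjusted p = 2.03e-29). Vcp, Ufd1 (listed as Ufd1l) and Nploc4 encode the segregase that pulls ubiquitinated proteins out of membranes and complexes, and all 3 fell, with log2 fold changes of -0.46, -0.30 and -0.30. The ubiquitin ligase Syvn1 of the endoplasmic reticulum and its partner Sel1l rose (0.66 and 0.50), as did Ngly1 (0.39), the glycanase that acts on NFE2L1. Ngly1 was not called with library totals (adjusted p = 0.0594) or without control replicate 3 (0.0953). Ddi2 and Fbxw7 did not pass.

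Of 13 genes for ubiquitin, its activating enzymes and shuttle factors, 8 rose (61.5%, against 31% of all tested genes). Another 4 fell (30.8%, near the background of 31.8%), and the median log2 fold change of the 13 was 0.19. Sqstm1, which encodes the cargo receptor p62, rose from 14834 ± 505 to 26990 ± 1066 (SD, n = 3 each) (log2 fold change 0.86, adjusted p = 1.25e-17), and the stress-induced Zfand2a, which binds proteasomes, had normalized counts of 1317, 1145 and 1168 in the control libraries and 1966, 1994 and 1779 in the H/R libraries (log2 fold change 0.66 ± 0.055 (SE), adjusted p = 9.18e-12). The ubiquitin gene Rps27a rose by a smaller amount (0.24) and Ubb did not pass (95% interval of the log2 fold change -0.08 to 0.13). The activating enzymes Uba1 and Uba6 rose (0.19 and 0.40). Among the shuttle factors Rad23b and Ubqln1 rose (0.33 and 0.18) while Ubqln2 and Ubqln4 fell (-0.39 and -0.14). Zfand2b rose (0.20), Zfand1 and Zfand5 fell (-0.26 and -0.12). With library totals Uba1, Ubqln1 and Zfand2b were not called (adjusted p = 0.0588, 0.102 and 0.178), and with DESeq2 Ubqln4 and Zfand5 were not (0.104 and 0.0937). Ubqln4 also lost its call without control replicate 3 (0.143) or H/R replicate 3 (0.186), and Zfand5 without control replicate 2 (0.0697) or H/R replicate 1 (0.183). Sqstm1 shares 17.3% of its exon length with other genes.

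On the list of MHC class I processing and interferon regulators, 6 of 9 genes could be tested. Of these 6, 3 rose (50%, against 31% of all tested genes) and 1 fell (16.7%, against 31.8%). Tap1, whose exons overlap those of Psmb9 on the other strand, had 2 counts in control replicate 2 and 0 in the other libraries, and Nlrc5 had at most 3. Tap2 had 1, 2 and 4 counts in the control libraries and 2, 8 and 10 after H/R, too few for a test. Tapbp, the chaperone tapasin, fell from 715 ± 18.8 to 407 ± 9.07 (SD, n = 3 each) (log2 fold change -0.81, adjusted p = 3.99e-13), and it shares 22.0% of its exon length with other genes. B2m, Irf1 and Irf9 rose, with log2 fold changes of 0.25, 0.40 and 0.44, and Stat2 and Erap1 did not pass. Psmb9 was at the floor in the same libraries in which Irf1 had 414 to 566 counts.

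**Figure D4:**
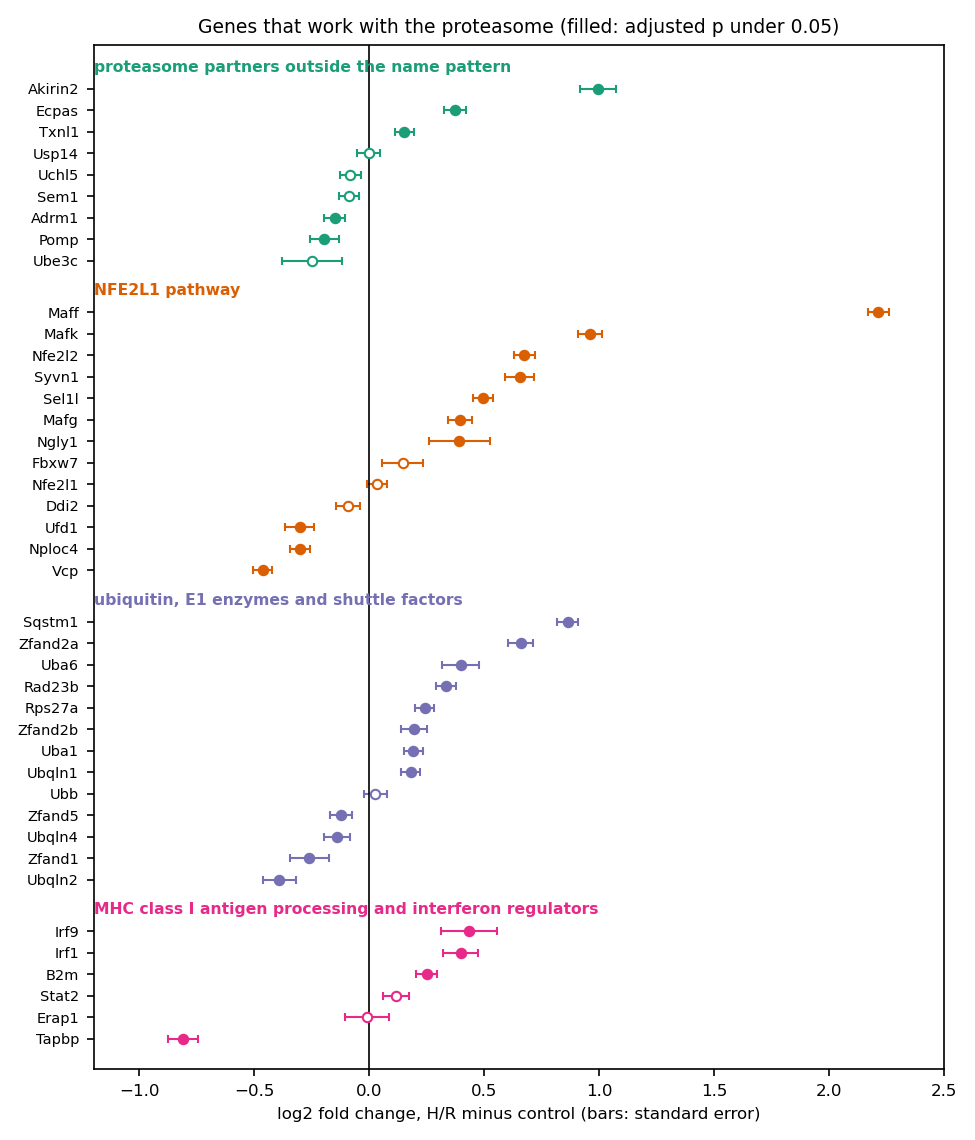
Log2 fold change of H/R over control with standard error (x axis) for the tested genes of 4 lists around the proteasome; filled points had an adjusted p under 0.05. Maff reaches 2.21 and Akirin2 0.99, Vcp lies at -0.46 and Tapbp at -0.81, and Nfe2l1 lies next to 0.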

How the data were processed

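The data were 6 stranded mRNA libraries of AML12 cells, 3 control and 3 H/R. Per the labels, the authors trimmed reads with Trimmomatic 0.36 and counted them per gene with featureCounts of Subread 1.5.1 on GRCm38 (mm10). The paper prints the aligner as STRA, read here as STAR. The deposited counts are whole numbers without normalization. The deposited RPKM values follow from these counts, the exon length and the library total (largest relative error 1.13e-06), and none of the 25330 genes is at 0 in all libraries. Whether strand was used in counting is not given in the sources used here, so overlapping genes are uncertain. Library totals of 20438746 to 21854790 counts leave counting error small for most members. Replicate libraries differed by more than sampling (chi-square over degrees of freedom 2.19 to 16.2). The highest values, 15.5 and 16.2, were those of control replicate 1 against control replicates 2 and 3. Control replicates 2 and 3 gave 5.6 between them, and pairs of H/R libraries gave 2.19 to 3.35.

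Tests used edgeR 4.0.16 under R 4.3.3 (filterByExpr, TMM, glmQLFit robust, glmQLFTest), DESeq2 1.42.0 and limma 3.58.1. The code was tested on simulated data. Standard errors were derived from the F statistic and 95% intervals use the t distribution with the degrees of freedom of the edgeR fit. A count of 3 or fewer in every library was the floor. Members and lists were chosen with earlier results of these data known. Every member is named. Values per library are given for the members with the highest and lowest change in each role, for Psmb5, Psmb6, Psmb7, Psmb9 and Psmb10, and for Psmd4, Psmd14, Psmc3ip and members at the floor. From the lists, Pomp, Adrm1, Nfe2l1, Nfe2l2, Zfand2a, genes past both thresholds and those at the ends are named, and others were named after their values were seen. Of the 3 planned ratios of inducible to constitutive subunits 1 was computed, since Psmb9 was at the floor and Psmb8 was not analysed here. Of 77 genes on all lists, 73 had a row. Some further genes of the lists are not reported here and were left out of the counts. Alternatives were other scalings, filters and fits, the replicate number as a block, and leaving out each library.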

Additional observations from a re-analysis of the deposited data

How the results depend on the processing

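The counts of members called kept within 1.5 times under all 9 alternatives on 6 libraries, with 25 to 34 lower and 2 or 3 higher, and no member changed 2-fold. Among all tested genes, 17.8% (no filter on low counts) to 39.1% (library totals) were lower. The share of all tested genes called higher ran from 17.1% (no filter) to 31.6% (at least 10 counts in every library). With 1 library left out, 24 to 28 members were lower and 2 to 4 higher (25 and 4 without control replicate 1). Of all tested genes, 28.6% to 30.2% were then lower and 28.3% to 29.9% higher. The median log2 fold change of the members lay between -0.187 and -0.16 in these fits. That median moved from -0.177 to -0.282 with library totals, -0.247 with upper quartile scaling, -0.28 on log2(RPKM + 0.1) and -0.273 on log2(RPKM + 1), as the median of all tested genes moved from -0.014 to -0.119, -0.084, -0.113 and -0.076. Genes counted on the 4 pathway lists stayed at 16 to 22 higher and 8 to 14 lower, beside the same shares of all tested genes. The ratio of Psmb10 to Psmb7 differed by 0.201 on the log2 scale, and by 0.14 to 0.283 with 1 library left out.

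Signs turned only for members that had not passed the threshold. In the order library totals, log2(RPKM + 0.1), log2(RPKM + 1) and upper quartile scaling, the log2 fold change was -0.0349, -0.0349, -0.0346 and -0.001 for Psma6, -0.0589, -0.0581, -0.0574 and -0.0241 for Psmb1, -0.0356, -0.0318, -0.0254 and -0.0014 for Psmb10, and -0.0755, -0.0751, -0.0746 and -0.041 for Psmd2. In the first 3 of these it was -0.0205, -0.0205 and -0.0201 for Psmd10 and -0.0027, -0.0011 and -0.0011 for Psme1. DESeq2 gave 0.0075 for Psmb6. With 1 library left out the range was -0.0942 to 0.0081 for Psmb4, -0.0207 to 0.0237 for Psmb6, -0.0441 to 0.0062 for Psmc5, -0.0009 to 0.0487 for Psmd2 and -0.2089 to 0.1127 for Psme2b. On 6 libraries 361 of 413 member values kept direction and side of the threshold, 7 were lost and 22 gained. With 1 library left out it was 251 of 276, with 11 lost and 5 gained. The causes were not tested beyond the scaling itself.

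Replicate numbers showed no pairing. After group means were subtracted, the libraries numbered 1, 2 and 3 correlated at -0.027, 0.005 and -0.014 across groups. A block for the replicate number left 27 members lower and 3 higher, against 31.6% and 31.0% of all tested genes, and the median at -0.177. With that block the ratio of Psmb10 to Psmb7 differed by 0.201 (exact sign-flip permutation test, p = 0.25, the smallest that 3 pairs allow). Depth limits Psmb9, Psmb11, Tap1 and Nlrc5, with 3 or fewer counts per library.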

Other observations

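Across the 46 tested members, the log2 fold change had a Spearman rho of -0.03 with the control RPKM and of -0.15 with the exon length. These are descriptions across genes, which share their libraries and are not independent replicates. The members lie on 16 chromosomes. The 2 rows left out for their -ps symbols were nearly empty, with at most 2 counts of Psmb5-ps and at most 4 of Psmb7-ps2 in any library.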
